A study of Mus musculus with 7 samples.

Results

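The expression of 8 genes used here as mast cell markers was described in whole fetal testes at embryonic day 14.5 (E14.5). They were *Cma1*, *Mcpt4*, *Tpsb2*, *Tpsab1*, *Cpa3*, *Fcer1a*, *Ms4a2* and *Hdc*, picked by symbol from the 24739 genes of the RefSeq table, and all 8 had 1 row each. Mast cells are tissue-resident blood cells that store proteases, histamine and proteoglycans in granules and release them when the high-affinity IgE receptor or other receptors are triggered. Mast cells of connective tissue are characterised by chymases, tryptases and carboxypeptidase A3. Their precursors arrive in embryonic tissues through the blood and depend on stem cell factor and its receptor KIT.

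RNA-Seq libraries were made from 1 pair of testes per embryo, all from C57BL/6 mice, with 3 wild-type libraries and 4 from *Glis3* mutant embryos. The mutants were homozygous for the *Glis3* zf5 allele, a global null in which exon 4 and parts of its neighbouring introns are deleted and DNA binding is lost. The deletion is carried by every cell type of the embryo. Levels are FPKM, fragment numbers that are scaled for library size and transcript length and can be compared between genes. The comparison asks which transcripts differ in the testis when GLIS3 function is lost.

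*Glis3* itself was measured at 7.63, 6.89 and 2.91 FPKM in wild-type replicates 1, 2 and 3 and between 2.66 and 3.86 FPKM in the 4 mutant libraries. The library labelled wild-type replicate 3 was therefore inside the range of the mutants for the targeted gene, and the limma log2 fold change of -0.69 did not pass the test (adjusted p = 0.268). Wild-type values below are those of the libraries with that label, and values that leave this one out are given where they end or make a call. Genes of the Sertoli cell list summed to 877 to 1094 FPKM in wild-type and 1065 to 1231 FPKM in mutant libraries, and those of the Leydig cell list to 1596 to 2658 and 2498 to 3073 FPKM, so both were present in all 7 libraries. The germ cell list summed to 540 to 1272 FPKM in wild-type and 441 to 588 FPKM in mutant libraries. Sums of FPKM over all genes reached from 694243 to 1018680 per library.

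The mast cell genes were low in the fetal testis. In wild-type libraries *Hdc* was above 5 FPKM, *Cma1* and *Cpa3* lay between 0.434 and 1.30 FPKM, and the other 5 members stayed under 0.5 FPKM. All 8 members had a higher mean in mutant libraries, beside 52.1% of all 13988 genes tested with a positive log2 fold change, but for *Fcer1a* the sign of the difference turned when wild-type replicate 1 or mutant replicate 4 was left out. Summed over the 8 genes, wild-type libraries held 6.86 to 10.3 FPKM and mutant libraries 10.03 to 27.0 FPKM. *Hdc* made up most of the wild-type sums. Without it the sums were 1.38 to 3.15 FPKM in wild-type and 2.65 to 17.7 FPKM in mutant libraries. The protease transcripts were far from even among the mutants, with mutant replicates 1 and 4 above all other libraries in *Cma1*, *Cpa3*, *Mcpt4*, *Tpsb2* and *Tpsab1*. In a bulk sample, more cells of a type cannot be told apart from more RNA per cell.

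None of the members passed the limma test at an adjusted p of 0.05, a threshold that 0.00715% of the 13988 genes (1 gene) passed. The 3 members tested were *Cma1*, *Cpa3* and *Hdc*, each with a wild-type mean over the filter of 0.5 FPKM, while the 5 others had a mean over all libraries under it and were compared by exact permutation tests alone. At an unadjusted p under 0.05, 2 of the 3 were higher in mutants (*Cpa3* and *Hdc*), beside 8.21% of all genes higher and 8.79% lower at that p. The libraries of the 2 groups did not overlap for *Hdc*, beside 7.31% of the genes tested, nor for *Ms4a2*, beside 2.58% of the genes under the filter. With 3 against 4 libraries there are 35 ways to assign the labels, so the smallest p of the exact permutation test is 0.0286.

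**Figure D1:**
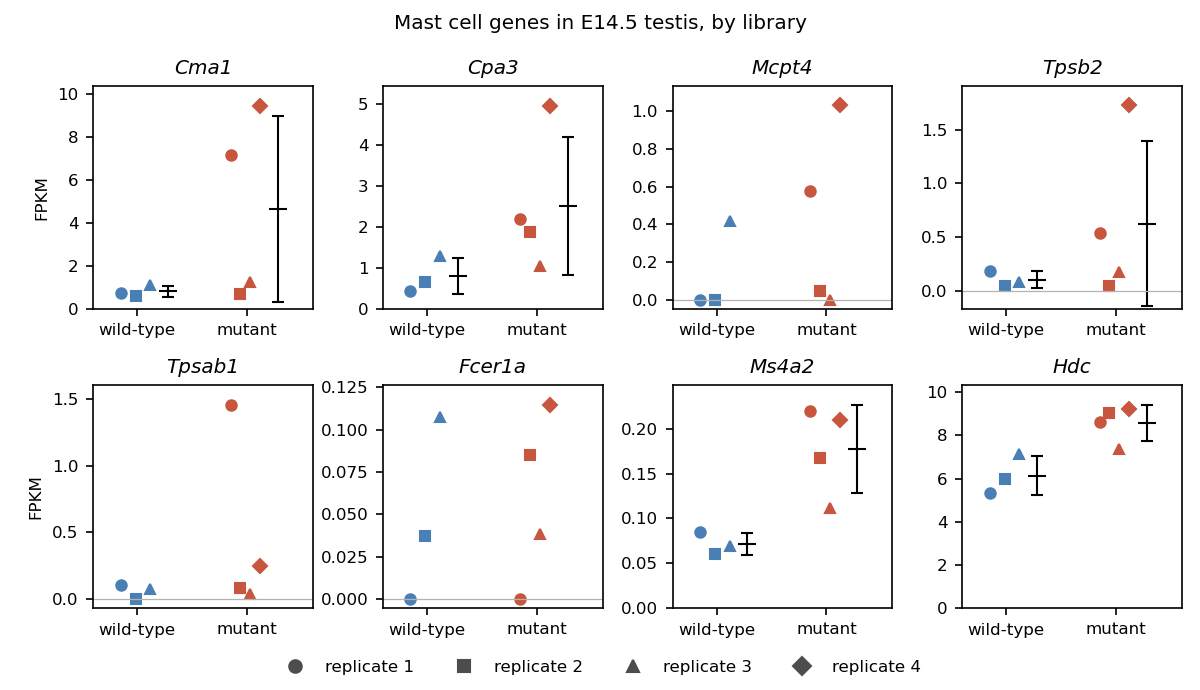
FPKM (y axis, linear, a scale of its own in each panel) of the 8 mast cell genes in 3 wild-type (blue) and 4 mutant (red) libraries, with the shape giving the replicate. Black bars are the mean and SD, drawn for genes above 0 in all libraries. Mutant replicates 1 and 4 stand highest for the 5 proteases, whereas *Hdc* and *Ms4a2* have all 4 mutant libraries above the 3 wild-type ones.

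*Cma1*, on chromosome 14 (mm10 chr14:55941451-55944661, minus strand), encodes the chymase mast cell protease of connective tissue mast cells. Its level was 0.736, 0.582 and 1.098 FPKM in wild-type replicates 1 to 3. In mutant replicates 1 to 4 it was 7.17, 0.6999, 1.25 and 9.44 FPKM. Thus mutant replicates 1 and 4 were many times above every wild-type library, mutant replicate 2 lay inside the wild-type range, and the groups overlapped. Mean levels were 0.805 ± 0.265 FPKM (SD, n = 3) and 4.64 ± 4.34 FPKM (SD, n = 4). The log2 fold change, on the log2(FPKM + 0.5) scale of all limma values here, was 1.46 (SE 0.71, 95% interval -0.15 to 3.08) with an adjusted p of 0.333, and the exact permutation test of mean FPKM gave p = 0.229. The highest mutant library was 13.5 times the lowest.

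*Mcpt4*, a second chymase of connective tissue mast cells, lies in the same cluster and on the same strand (chr14:56059744-56062310). It was listed at 0 in wild-type replicates 1 and 2 and at 0.421 FPKM in the library labelled wild-type replicate 3. Mutant replicates 1 to 4 held 0.579, 0.0455, 0 and 1.03 FPKM. Mutant replicate 4 was again highest and mutant replicate 1 next, with the third highest value in a wild-type library, and the exact permutation test gave p = 0.457. The values of *Mcpt4*, *Tpsb2*, *Tpsab1* and *Fcer1a* fell near whole multiples of what 1 fragment is worth (within 0.25 of a step), while no such step was found for *Ms4a2*. By those steps the *Mcpt4* levels correspond to about 11 fragments in wild-type replicate 3, 14 in mutant replicate 1, 1 in mutant replicate 2 and 25 in mutant replicate 4.

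The 250 bases before the start of both chymase genes are shown because the 2 genes were highest in the same pair of mutant libraries. They are RefSeq promoter sequences of GRCm38.p6, read 5′ to 3′ on the minus strand. Capitals mark matches to the GATA motif, searched on both strands as AGATAA or else AGATAG, and also as TGATAA or else TGATAG. The mast cell lineage uses GATA1 and GATA2 as transcription factors. The windows are chr14:55944676-55944925 for *Cma1* and chr14:56062311-56062560 for *Mcpt4*.
Cma1: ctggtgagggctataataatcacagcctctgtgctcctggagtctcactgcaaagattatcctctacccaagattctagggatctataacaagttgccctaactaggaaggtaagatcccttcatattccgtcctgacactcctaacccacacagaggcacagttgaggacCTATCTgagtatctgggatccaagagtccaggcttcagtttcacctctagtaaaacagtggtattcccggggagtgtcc
Mcpt4: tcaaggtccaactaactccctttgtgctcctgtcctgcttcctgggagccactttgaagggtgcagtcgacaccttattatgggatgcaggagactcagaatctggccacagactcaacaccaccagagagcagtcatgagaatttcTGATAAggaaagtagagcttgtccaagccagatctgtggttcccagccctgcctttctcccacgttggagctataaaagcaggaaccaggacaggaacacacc
The match lies 79 bases before the start in *Cma1* and 103 bases before it in *Mcpt4*, and the *Mcpt4* window also holds the letters TATAAA.

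Promoters were given for 6 of the 8 members, without *Tpsb2* and *Tpsab1*, and all 6 held at least 1 GATA match, beside 26.5% of all 32851 promoter windows of that length. The letters CACATG or CACGTG, bound by MITF, were in 1 of the 6 (*Fcer1a*) beside 17.6% of all windows. TATAAA, searched on the strand of the gene alone, was in 3 of the 6 (*Cpa3*, *Mcpt4* and *Fcer1a*) beside 7.59%. These letter matches are descriptions and were not tested as binding sites.

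*Cpa3* (chr3:20215616-20242181, minus strand) encodes carboxypeptidase A3, the granule exopeptidase of mast cells. It was measured at 0.434, 0.655 and 1.30 FPKM in wild-type replicates 1 to 3. The mutant libraries 1 to 4 held 2.18, 1.88, 1.04 and 4.95 FPKM. Of the 4 mutants, 3 were above all wild-type libraries, and mutant replicate 3 was below the library labelled wild-type replicate 3. The means were 0.796 ± 0.449 FPKM (SD, n = 3) and 2.51 ± 1.69 FPKM (SD, n = 4). The log2 fold change was 1.12 (SE 0.40, 95% interval 0.20 to 2.03), with an unadjusted limma p of 0.0223 and an adjusted p of 0.229. The exact permutation test of mean FPKM gave p = 0.114. Its promoter window, at chr3:20242182-20242431, is shown for the GATA match in capitals 46 bases before the start.
Cpa3: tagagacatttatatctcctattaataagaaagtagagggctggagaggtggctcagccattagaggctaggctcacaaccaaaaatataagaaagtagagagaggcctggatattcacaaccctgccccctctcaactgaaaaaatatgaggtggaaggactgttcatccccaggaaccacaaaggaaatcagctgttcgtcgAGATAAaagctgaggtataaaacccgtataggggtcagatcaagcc

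The tryptases *Tpsb2* (chr17:25366333-25368092, plus strand) and *Tpsab1* (chr17:25343245-25345562, minus strand) encode trypsin-like granule proteases that are stored with heparin. *Tpsb2* was at 0.190, 0.0443 and 0.0829 FPKM in wild-type replicates 1 to 3 and at 0.535, 0.0497, 0.178 and 1.73 FPKM in mutant replicates 1 to 4 (exact permutation test, p = 0.343). *Tpsab1* was at 0.105 FPKM, listed at 0, and at 0.0763 FPKM in wild-type replicates 1 to 3, and at 1.46, 0.0854, 0.0408 and 0.2504 FPKM in mutant replicates 1 to 4 (exact permutation test, p = 0.486). The tryptases thus had opposite orders in the 2 highest libraries, with *Tpsb2* highest in mutant replicate 4 and *Tpsab1* in mutant replicate 1. In fragments, *Tpsb2* came to about 12 in mutant replicate 1 and 38 in mutant replicate 4. The corresponding *Tpsab1* values were about 35 and 6, and no other library held more than 5 of either. No stretch of 1 read length of any member transcript was shared with another gene of the annotation.

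Summed over the 5 proteases, the level was 1.46, 1.28 and 2.98 FPKM in wild-type and 11.9, 2.76, 2.502 and 17.4 FPKM in mutant libraries. *Cma1* and *Cpa3* made up 78.4% to 96.5% of that sum in every library. The ratio of *Cma1* to *Cpa3* was 1.69, 0.888 and 0.846 in wild-type and 3.28, 0.373, 1.20 and 1.91 in mutant libraries. The makeup of the protease transcripts therefore varied among mutants: mutant replicate 2 held more *Cpa3* than *Cma1*, and the reverse was seen in the other 3.

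*Ms4a2* (chr19:11615521-11623719, minus strand) encodes the beta subunit of the high-affinity IgE receptor, which amplifies its signal. It was measured at 0.0845, 0.0599 and 0.0695 FPKM in wild-type replicates 1 to 3 and at 0.220, 0.168, 0.112 and 0.210 FPKM in mutant replicates 1 to 4. All mutant libraries were above all wild-type libraries, with means of 0.0713 ± 0.0124 FPKM (SD, n = 3) and 0.177 ± 0.0489 FPKM (SD, n = 4). The exact permutation test of mean FPKM gave p = 0.0571. In mutant replicate 2 *Ms4a2* was above every wild-type library, as *Cpa3* was and *Cma1* was not, and its highest mutant value was 1.96 times the lowest. Its promoter window (chr19:11623720-11623969) held 3 GATA matches, 224, 37 and 11 bases before the start.
Ms4a2: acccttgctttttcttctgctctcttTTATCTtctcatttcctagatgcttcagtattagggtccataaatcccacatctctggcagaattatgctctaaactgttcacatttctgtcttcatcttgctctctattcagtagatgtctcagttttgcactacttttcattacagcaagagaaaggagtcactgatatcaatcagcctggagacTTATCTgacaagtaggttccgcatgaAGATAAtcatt

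*Fcer1a* (chr1:173221271-173227229, minus strand) encodes the alpha subunit, which binds IgE. It was listed at 0 in wild-type replicate 1 and at 0.0374 and 0.108 FPKM in wild-type replicates 2 and 3. The mutant libraries 1 to 4 were listed at 0, 0.0848, 0.0381 and 0.115 FPKM. These are at most 3 fragments per library and the exact permutation test gave p = 0.8. The libraries of both groups overlapped, and a difference was not detectable at this depth.

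*Hdc* (chr2:126593660-126618678, minus strand) encodes histidine decarboxylase, the enzyme that makes histamine. It was at 5.31, 5.99 and 7.12 FPKM in wild-type replicates 1 to 3 and at 8.61, 9.03, 7.38 and 9.23 FPKM in mutant replicates 1 to 4. The groups did not overlap, although mutant replicate 3 was only just above the library labelled wild-type replicate 3. Means were 6.14 ± 0.915 FPKM (SD, n = 3) and 8.56 ± 0.828 FPKM (SD, n = 4). The log2 fold change was 0.45 (SE 0.12, 95% interval 0.19 to 0.72), with an unadjusted limma p of 0.00393 and an adjusted p of 0.173. The exact permutation test gave p = 0.0571. When wild-type replicate 3, by its label, was left out, the limma log2 fold change was 0.56 and its adjusted p 0.0345, in a fit that called 1.16% of 14019 genes higher and 3.99% lower; over the 16 alternatives the adjusted p of *Hdc* reached from 0.0345 to 0.380.

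The order of the libraries for *Hdc* was close to that for *Cpa3*, with wild-type replicates 1 and 2 lowest and mutant replicate 4 highest for both, and differed from that for *Cma1*. In mutant replicate 2, where *Cma1* was at 0.6999 FPKM, *Hdc* was at 9.03 FPKM, close to its level in mutant replicate 4. Its level also exceeded that of every member protease in all wild-type libraries, and its highest mutant value was 1.25 times the lowest. Whether the *Hdc* RNA came from mast cells or from other cells of the testis was not tested.

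Neighbouring genes of both protease clusters were read beside the members. On chromosome 14, *Mcpt2*, a chymase of mucosal mast cells, was at 0.0686, 0.0765 and 0.658 FPKM in wild-type and 1.18, 0 (as listed), 0.424 and 2.38 FPKM in mutant libraries. It thus had its highest values in mutant replicates 4 and 1, as did *Cma1* and *Mcpt4*, with a log2 fold change of 0.76 (limma adjusted p = 0.516). With a wild-type mean of 0.268 FPKM, *Mcpt2* passed the filter of 0.5 FPKM only through its mutant values, so the sign of that fold change was fixed by the filter. *Ctsg*, the cathepsin G gene of neutrophils and mast cells, had another order, at 1.03, 0.957 and 1.55 FPKM in wild-type and 1.61, 1.94, 2.51 and 1.22 FPKM in mutant libraries (log2 fold change 0.45, limma adjusted p = 0.311). *Mcpt8*, a protease of basophils, was at 0.137, 0.768 and 0.0974 FPKM in wild-type and 0.526, 0.584, 0.210 and 1.102 FPKM in mutant libraries. *Mcpt1*, *Mcpt9*, *Cma2*, *Gzmb* and *Gzmc* did not exceed 0.0765 FPKM in any library.

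On chromosome 17, *Prss34*, which encodes a further basophil protease, was at 0.0649, 0.454 and 0.106 FPKM in wild-type and 0.422, 0.128, 0.190 and 0.968 FPKM in mutant libraries. *Tpsg1*, a membrane-anchored tryptase next to *Tpsb2*, stayed between 0.0693 and 0.206 FPKM. *Prss28* stayed under 0.5 FPKM. *Prss29* was highest in wild-type replicate 1, at 2.71 FPKM, and had a log2 fold change of 0.10 (limma adjusted p = 0.932), although its mean FPKM was lower in mutants (0.981 ± 0.402, SD, n = 4) than in wild-type (1.17 ± 1.35, SD, n = 3). The high protease values of mutant replicates 1 and 4 were thus seen in some genes of each cluster and not along all of it.

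**Figure D2:**
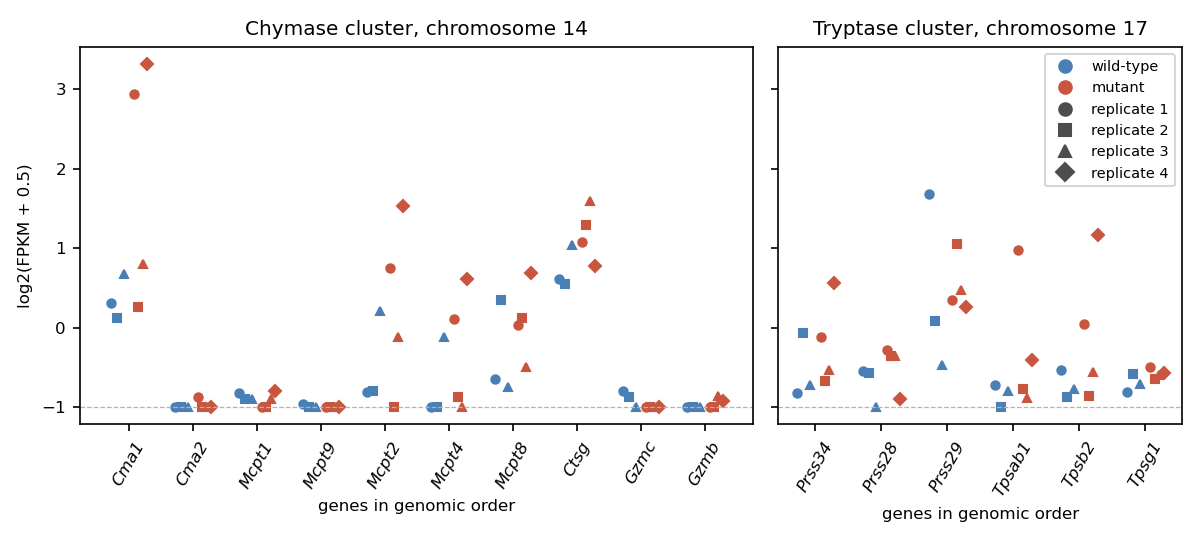
Level on the log2(FPKM + 0.5) scale (y axis) of the protease genes around *Cma1* and *Mcpt4* on chromosome 14 (left) and around *Tpsab1* and *Tpsb2* on chromosome 17 (right), in genomic order. Points are wild-type (blue) and mutant (red) libraries with the replicate as shape, and the dashed line is a value of 0 FPKM. *Cma1*, *Mcpt2* and *Mcpt4* are highest in mutant replicate 4, followed by mutant replicate 1, and *Cma2*, *Mcpt1*, *Mcpt9*, *Gzmb* and *Gzmc* lie at or near the line.

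The other genes of mast cell biology were taken from 5 lists with 73 genes, of which 46 passed the filter. None passed the limma test at an adjusted p of 0.05, 10 had an unadjusted p under 0.05 and were higher in mutants (21.7%, beside 8.21% of all genes), and 0 were lower at that p. A positive log2 fold change was found for 37 of the 46 (80.4%, beside 52.1% of all genes), with a median of 0.17 beside 0.01 over all genes. This count includes *Mcpt2* and *Ikzf1*, with wild-type means of 0.268 and 0.439 FPKM. Both passed the filter of 0.5 FPKM through their mutant values, which fixed their sign in advance. The groups did not overlap for 8 of the 46 genes, all higher in mutants (17.4%, beside 7.31% of all genes). Such a shift was not particular to these lists. A positive log2 fold change was also found for 9 of 9 macrophage genes (median 0.38), 5 of 5 Leydig (0.47) and 5 of 5 Sertoli cell genes (0.16). It was found for 4 of 7 endothelial (0.02) and 0 of 6 germ cell genes (-0.81). Many genes of the 5 lists are used by other cells of the testis, and at 46 tested genes the lists are small.

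Among the other granule genes, 11 of 16 passed the filter. At an unadjusted p under 0.05, 3 of the 11 were higher in mutants and 0 lower, beside 8.21% of all genes higher and 8.79% lower. *Cd63*, a tetraspanin of granule and lysosome membranes, was at 21.1, 19.0 and 21.9 FPKM in wild-type and 25.5, 26.2, 23.9 and 25.7 FPKM in mutant libraries, with a log2 fold change of 0.29 (limma adjusted p = 0.169). *Serpinb1a*, an inhibitor of neutrophil and chymase-type proteases, was at 13.6, 17.4 and 14.4 FPKM in wild-type and 19.8, 18.02, 18.7 and 20.0 FPKM in mutant libraries (limma adjusted p = 0.180). Both had groups that did not overlap, and unlike the member proteases their mutant libraries lay close together. *Ctsd*, a lysosomal protease at 249 ± 26.7 FPKM (SD, n = 3) in wild-type and 282 ± 20.3 FPKM (SD, n = 4) in mutant testes, *Ctsc*, which activates granule proteases, and the lysosomal membrane gene *Lamp1* had limma adjusted p-values of 0.348, 0.679 and 0.881.

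Of 20 other receptor and receptor signalling genes, 12 passed the filter. At an unadjusted p under 0.05, 2 of the 12 were higher in mutants and 0 lower, beside 8.21% of all genes higher and 8.79% lower. In no gene of this list were the groups apart. *Kit*, which encodes the stem cell factor receptor of mast cells and is also used by germ cells, was at 6.91, 3.82 and 6.64 FPKM in wild-type and 4.31, 4.91, 5.77 and 5.70 FPKM in mutant libraries (log2 fold change -0.12, limma adjusted p = 0.790). It was not higher where the proteases were, and its sign turned when wild-type replicate 1 was left out. *Lat2*, an adaptor downstream of the IgE receptor, was at 0.902 ± 0.334 FPKM (SD, n = 3) in wild-type and 1.37 ± 0.238 FPKM (SD, n = 4) in mutant testes (log2 fold change 0.44, limma adjusted p = 0.276). *Il3ra*, the alpha chain of the interleukin-3 receptor, was at 1.49 ± 0.317 FPKM (SD, n = 3) and 2.35 ± 0.750 FPKM (SD, n = 4) (log2 fold change 0.49, limma adjusted p = 0.282). *Gab2*, *Il4ra* and *Plcg1*, which act in receptor signalling, had log2 fold changes of 0.14, 0.11 and -0.13. The mast cell receptors *Mrgprb1*, *Mrgprb2* and *Mrgprx2* did not exceed 0.0215 FPKM in any library.

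Of the 12 transcription factors listed, 11 passed the filter. At an unadjusted p under 0.05, 2 of the 11 were higher in mutants and 0 lower, beside 8.21% of all genes higher and 8.79% lower. *Cebpa*, a myeloid factor that is not particular to mast cells, was at 9.85, 14.5 and 13.99 FPKM in wild-type and 15.6, 19.2, 21.0 and 19.4 FPKM in mutant libraries (log2 fold change 0.55, limma adjusted p = 0.180). *Spi1*, which encodes the myeloid factor PU.1, was at 0.392, 0.577 and 0.534 FPKM in wild-type and 0.701, 0.658, 1.07 and 0.877 FPKM in mutant libraries (log2 fold change 0.40, limma adjusted p = 0.247). For both genes the mutant libraries were all above the wild-type ones. *Gata1*, *Gata2* and *Mitf*, the factors that direct mast cell genes, had log2 fold changes of 0.22, 0.04 and 0.04 and were not chosen by the naming rule. *Hes1*, *Lmo2* and *Meis2* had log2 fold changes of 0.13, 0.10 and -0.06, and the sign turned under some settings for *Lmo2* and *Meis2*.

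*Hnmt*, the methyltransferase that breaks down histamine in cells, was at 4.503, 5.39 and 3.99 FPKM in wild-type and 7.15, 6.96, 6.44 and 7.02 FPKM in mutant libraries. It had the lowest unadjusted limma p of the genes named from these lists (0.000717; log2 fold change 0.54, SE 0.10, adjusted p = 0.136), and its groups were apart. *Hdc* and *Hnmt*, which make and break down histamine, thus both had all mutant libraries above all wild-type libraries. *Alox5ap*, the activating protein of leukotriene synthesis, had a log2 fold change of 0.37 (limma adjusted p = 0.220), and *Ptgs1*, a cyclooxygenase, of 0.08 (limma adjusted p = 0.736). Of the 14 genes in this list 5 passed the filter, and the histamine receptors *Hrh1*, *Hrh2*, *Hrh3* and *Hrh4* were under 0.5 FPKM in all libraries.

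Of 11 growth factor and recruitment genes, 7 passed the filter. *Kitl*, which encodes stem cell factor and is made by Sertoli cells, was at 30.9, 37.7 and 45.9 FPKM in wild-type and 41.0, 43.2, 43.2 and 43.2 FPKM in mutant libraries (log2 fold change 0.18, limma adjusted p = 0.468). *Cxcl12*, a chemokine made by stromal cells, was at 129, 148 and 117 FPKM in wild-type and 186, 202, 148 and 161 FPKM in mutant libraries (log2 fold change 0.41, limma adjusted p = 0.193). The groups were only just apart, with 147.8 FPKM in wild-type replicate 2 and 148.1 FPKM in mutant replicate 3. The *Cxcl12* receptor gene *Cxcr4* had a log2 fold change of 0.21 (limma adjusted p = 0.453). *Il3* and *Il9*, cytokines that make mast cells grow, were listed at 0 in all 7 libraries.

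**Figure D3:**
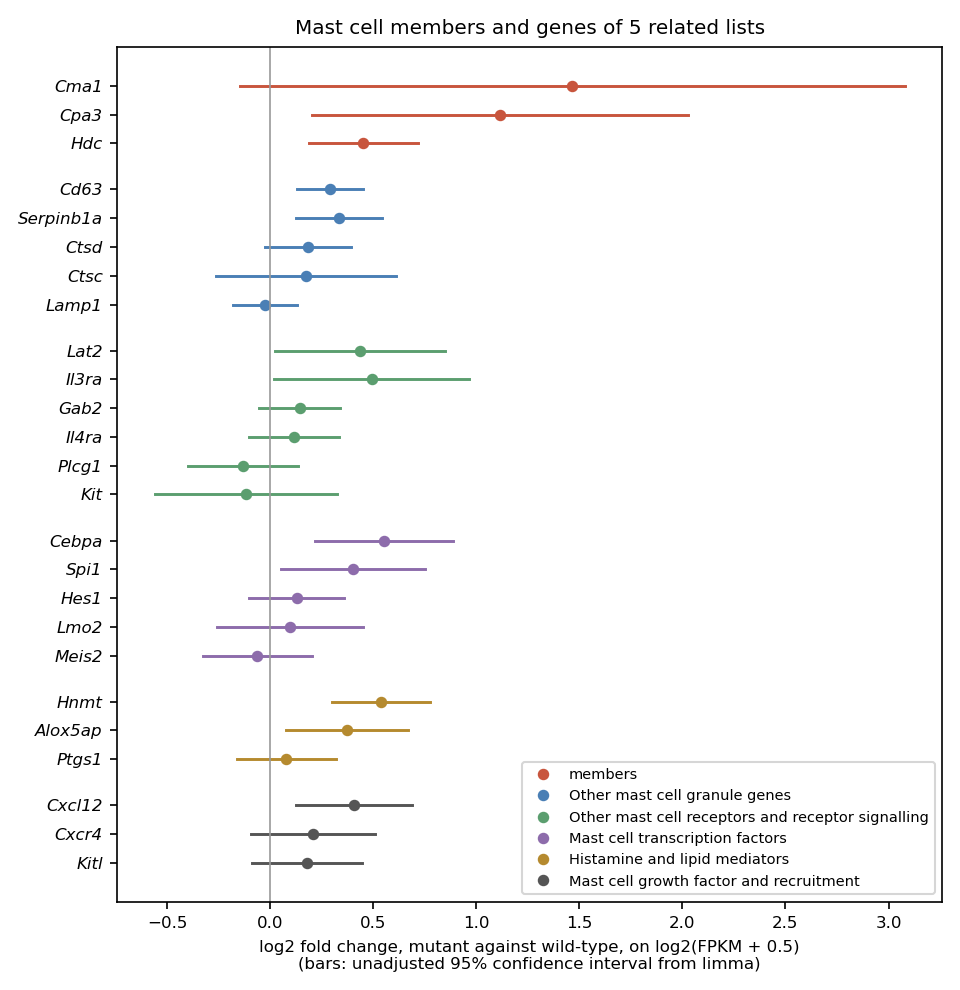
Log2 fold change of mutant against wild-type on the log2(FPKM + 0.5) scale (x axis) with unadjusted 95% confidence intervals from limma, for the 3 members tested and 22 genes named from 5 lists (y axis, coloured by list). *Cma1* has the widest interval (-0.15 to 3.08), and the interval of *Hdc* reaches from 0.19 to 0.72.

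Markers of other cell types moved with the mast cell genes in part. The macrophage list summed to 40.2 to 48.9 FPKM in wild-type and 51.7 to 67.7 FPKM in mutant libraries, with the groups apart. At an unadjusted p under 0.05, 4 of its 9 tested genes were higher, beside 8.21% of all genes. The general leukocyte list summed to 16.9 to 25.2 and 21.6 to 29.1 FPKM. The eosinophil list summed to 3.40, 1.45 and 3.13 FPKM in wild-type and 6.50, 8.18, 2.67 and 6.70 FPKM in mutant libraries. Its granule gene *Prg2*, the eosinophil major basic protein gene, was at 0.0516 to 0.286 FPKM in wild-type and at 4.33, 5.66, 0.0557 and 4.29 FPKM in mutant replicates 1 to 4, so that mutant replicate 2 was highest for *Prg2* and near the wild-type level for *Cma1*. *Prg2* made up most of the eosinophil sums of mutant replicates 1, 2 and 4 (log2 fold change 2.22, limma adjusted p = 0.214). With a wild-type mean of 0.149 FPKM, *Prg2* passed the filter of 0.5 FPKM only through its mutant values, so the sign of its fold change was fixed by the filter. *Siglecf*, the only other eosinophil gene tested, was not higher in mutants (log2 fold change -0.04, limma adjusted p = 0.947). The basophil list summed to 4.57 to 5.63 and 4.85 to 7.15 FPKM. The neutrophil list summed to 176, 123 and 102 FPKM in wild-type and 331, 132, 569 and 291 FPKM in mutant libraries, with mutant replicate 3 highest, where the proteases were low. Most of these sums was *S100a8* and *S100a9*, at 375 and 174 FPKM in mutant replicate 3. *Elane* and *Prtn3* were also highest there. *Ltf* and *Ngp* were highest in mutant replicates 4 and 1, *Camp* and *Mpo* in mutant replicate 1, and *Retnlg* in wild-type replicate 2.

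Lists of other tissues and cell types also differed from library to library. Whether tissue was taken along at dissection was not tested. The skeletal muscle list summed to 44.6, 5.99 and 7.31 FPKM in wild-type and 25.1, 21.9, 6.93 and 63.3 FPKM in mutant libraries. Mutant replicate 4 was highest for this list, followed by wild-type replicate 1 and mutant replicate 1. The protease sums of these libraries were 17.4, 1.46 and 11.9 FPKM, in that order. The connective tissue list summed to 1342 to 1635 and 1622 to 2012 FPKM, with mutant replicate 2 highest. The endothelial list summed to 91.5 to 115 and 98.9 to 105 FPKM, the mesothelial list to 66.8 to 82.0 and 65.1 to 80.8 FPKM, and the mesonephric list to 7.99 to 10.9 and 7.52 to 9.51 FPKM. The adrenal list summed to 16.1 to 26.4 and 24.4 to 33.7 FPKM. The red cell list summed to 3137 to 5112 and 2671 to 5647 FPKM and was lowest in mutant replicate 1, the megakaryocyte and platelet list summed to 14.3 to 23.5 and 9.39 to 21.4 FPKM, and the lymphoid list to 1.29 to 1.76 and 1.27 to 1.98 FPKM. The part of these cell types in the mast cell values was not tested.

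**Figure D4:**
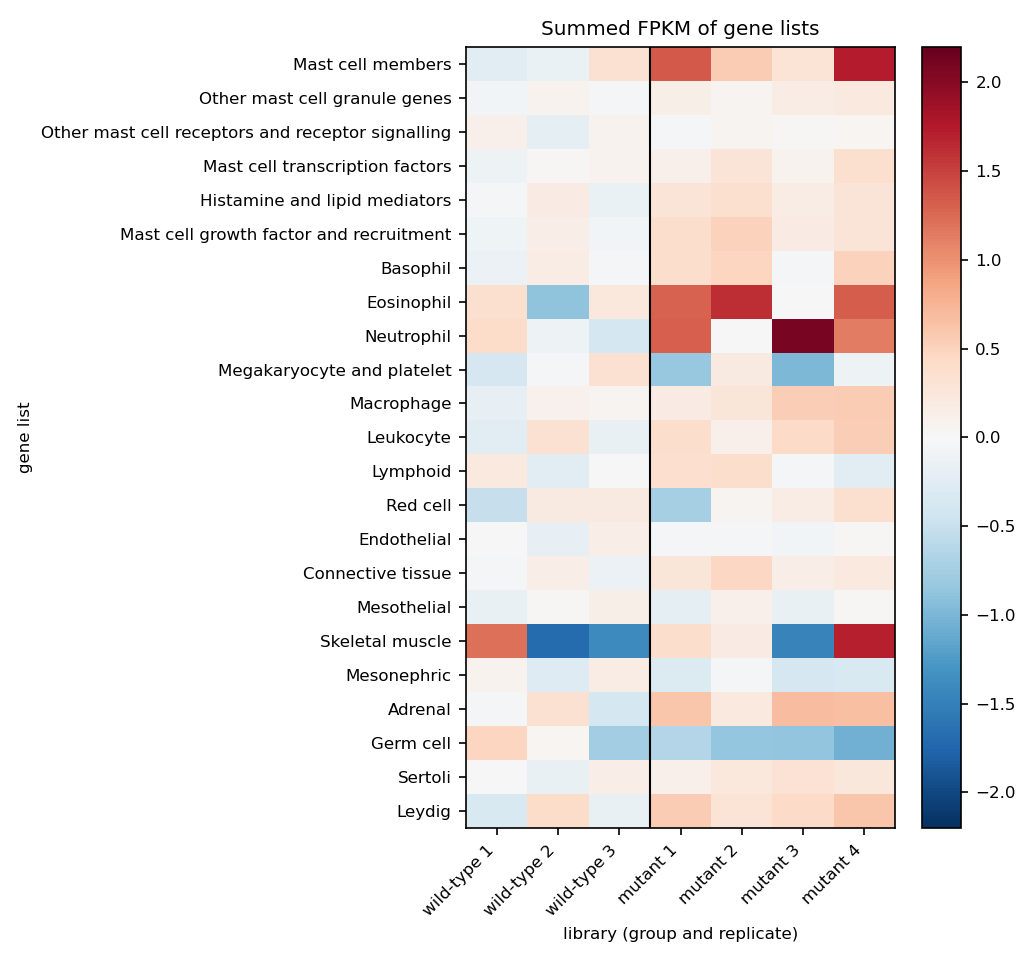
Summed FPKM of each gene list (rows) in each library (columns), as the log2 of its ratio to the mean of the 3 wild-type libraries (colour; red is higher, blue lower, white equal). The mast cell members are highest in mutant replicates 4 and 1 (1.72 and 1.34), the neutrophil list in mutant replicate 3 (2.09) and the skeletal muscle list in mutant replicate 4 (1.71).

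The genes with the pattern most like that of the members were found by Pearson's r of log2(FPKM + 0.5) with the mean log2 value of *Cma1*, *Cpa3* and *Hdc* over the 7 libraries. That mean was 0.92, 1.01 and 1.48 in wild-type and 2.52, 1.59, 1.47 and 3.01 in mutant libraries, a range of 2.10. The 8 genes were *Anapc5* (r = 0.988), *Nudt3* (0.976), *Trappc6a* (0.967), *Ltf* (0.960), *Pld2* (0.957), *P2rx2* (0.957), *Adat2* (0.953) and *2310015A10Rik* (0.951), all chosen as the highest of the 13988 genes tested, over points that share their libraries. After each group's mean was removed, they were *Anapc5* (0.977), *2310015A10Rik* (0.970) and *Tceal3* (0.967). *Anapc5*, a subunit of the anaphase-promoting complex, had a range of only 0.19 in log2 value, from 182 to 207 FPKM. *Ltf*, the lactoferrin gene of neutrophils, had the widest range of the 8, at 1.20, and was at 0.350 to 0.657 FPKM in wild-type and 1.39, 0.645, 0.650 and 1.45 FPKM in mutant libraries. None of these genes is a mast cell marker of the lists above.

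A second readout came from reads counted by the authors in LINE, SINE and LTR loci that lie within the bounds of the member genes. There were 61 such loci, with 136 reads over all libraries, out of 3454317 to 4670830 reads in all loci per library. Their sum was 2.57, 4.42 and 3.48 CPM, counts scaled to the reads in all loci of a library, in wild-type and 4.53, 3.47, 8.31 and 8.07 CPM in mutant libraries (exact permutation test, p = 0.2), with wild-type and mutant libraries overlapping. Of the 136 reads, 101 lay in the 26 loci of *Hdc*, at 9, 14 and 9 reads in wild-type and 12, 9, 26 and 22 in mutant libraries (exact permutation test of CPM, p = 0.171). Here mutant replicates 3 and 4 were highest, an order that the FPKM of *Hdc* did not show. The 24 loci of *Cpa3* held 2, 3 and 5 reads in wild-type and 2, 1, 2 and 7 in mutant libraries, so that only mutant replicate 4 was above the wild-type range. The 7 loci of *Ms4a2* held 1, 0 and 0 reads in wild-type and 2 in each mutant library (exact permutation test of CPM, p = 0.0286, the smallest possible with 3 against 4, in 9 reads), so its groups were apart as in FPKM. *Cma1* and *Fcer1a* had 2 reads each over all libraries, and *Mcpt4*, *Tpsb2* and *Tpsab1* had none.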

How the data were processed

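RNA was taken from 7 pairs of testes (3 wild-type and 4 mutant embryos, groups from the sample labels), depleted of ribosomal RNA, and sequenced without poly-A selection or strand information. The authors aligned reads to mm10 with TopHat2 2.0.12 and made FPKM values per RefSeq gene with Cuffquant and Cuffnorm; the deposited FPKM already carry that library scaling. The deposited counts of LINE, SINE and LTR loci are whole reads per locus, counted by the authors from uniquely mapped reads with HTSeq, and are not normalized.

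The 13988 genes whose mean reached 0.5 FPKM were compared by limma 3.58.1 in R 4.3.3 (lmFit, eBayes with trend, two-sided) after a log2(FPKM + 0.5) transform; p-values were adjusted by Benjamini-Hochberg, and an adjusted p under 0.05 was called. The authors' gene test needs aligned reads and was not used. Single values were compared by two-sided exact permutation tests, whose smallest p is 0.0286, or 0.0667 without 1 wild-type and 0.05 without 1 mutant library. Locus reads inside RefSeq gene bounds were divided by the sum over all loci as CPM; TMM factors came from edgeR 4.0.16. On simulated data, limma recovered 182 of 200 genes changed by 1.5 on the log2 scale among 13988, with 9 false calls. The simulated noise was normal and independent between genes and libraries, so it held no library that differed in many genes at once. The 200 genes were drawn at random from all tested, and their recovery need not hold for genes as variable as *Cma1*. Depth per library is known only for the loci, where intervals would cover counting error only; FPKM of 4 low members were converted to fragments by their whole steps (tolerance 0.25). Promoters came from RefSeq (GRCm38.p6) and read-length windows from GENCODE M21. Alternatives were other pseudocounts (0.1 and 1), filters (none and 2 FPKM), scalings, weights, no trend, a replicate block and leaving out each library.

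The members and lists were chosen with earlier results of these data known. Genes named were all members, the annotated neighbours, *Glis3*, up to 6 genes per list with a mean of at least 5 FPKM or an unadjusted p under 0.05, ordered by p, and the 8 genes (3 within groups) most like the members. Other genes were named after their values were seen, and 1 gene of the lists is counted but not reported here.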

Additional observations from a re-analysis of the deposited data

Results flagged for a closer look

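In the 4 mutant libraries, 9 of 74 values tested had 1 library far from the others. The rule was a gap to the nearest over Dixon's 95% critical share of the range. For normally distributed values chance gives this in about 1 in 20 groups, and this rate need not hold for low FPKM or few reads. A value above 0 in only 1 mutant library is always flagged, as for *Cma2* and the repeat locus of *Cma1*. *Tpsab1* was at 1.46 FPKM in mutant replicate 1, beside 0.2504 FPKM in the next highest mutant library. *Cma2* was at 0.0442 FPKM in mutant replicate 1 and listed at 0 in the other mutants. *Prss28* was lowest in mutant replicate 4, at 0.0359 FPKM, beside 0.278 FPKM or more in the others. *Kitl* was lowest in mutant replicate 1, at 41.0 FPKM beside 43.2 FPKM in the others, a small difference among libraries that lay close together. *Ptgs1* was highest in mutant replicate 2, at 6.41 FPKM beside 5.37 FPKM or less. The summed mesonephric list was highest in mutant replicate 2, at 9.51 FPKM, and the summed adrenal list was lowest there, at 24.4 FPKM. In the repeat loci, mutant replicate 4 stood apart from the other mutants for *Cma1*, at 0.252 CPM from 1 read, and for *Cpa3*, at 1.77 CPM from 7 reads. Wild-type replicate 3 also held 1 read for *Cma1*, at 0.232 CPM.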

How the results depend on the processing

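The count of genes past the threshold was 1, with 4 without the filter, 3 with quantile normalization, 0 with a replicate block and 1 to 722 with 1 library left out; 722 came without the library labelled wild-type replicate 3, 5 without wild-type replicate 2, and 2 without wild-type replicate 1 or mutant replicate 3. Members past it numbered 0 in all settings but 1 (0 to 1 with 1 library left out), where *Hdc* passed without wild-type replicate 3. For the other mast cell lists the count was 0 (0 to 3 with 1 library left out), with *Cd63* and *Hnmt* among those passing without that library (limma adjusted p = 0.0492 and 0.0483). The median log2 fold change of the members tested was 1.12, with 0.51 without the filter (8 members), 1.45 with a pseudocount of 0.1, 0.78 with the replicate block, and 0.78 (without mutant replicate 4) to 1.39 with 1 library left out. In the alternatives run (16, and 15 for *Cpa3*, which the filter of 2 FPKM removed) the log2 fold change stayed positive for *Cma1* (0.97 to 1.99, limma adjusted p 0.290 to 0.558), *Cpa3* (0.78 to 1.45, 0.107 to 0.496) and *Hdc* (0.36 to 0.56).

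The sign turned for *Lmo2* (main 0.10; -0.011 with the replicate block and without mutant replicate 4; -0.028 without wild-type replicate 1 to 0.20 with 1 library left out), *Meis2* (0.014 without mutant replicate 3; 0.023 without wild-type replicate 1; down to -0.12 with 1 library left out), *Lamp1* (0.024 without wild-type replicate 1; down to -0.050 with 1 library left out and -0.076 with quantile normalization), *Kit* (0.022 without wild-type replicate 1; down to -0.37 with 1 library left out) and the mean FPKM difference of *Fcer1a* (-0.0131 without wild-type replicate 1, -0.00737 without mutant replicate 4, up to 0.0407 with 1 library left out). The cause of these changes was not tested. *Glis3* passed the test without wild-type replicate 3 (log2 fold change -1.09, limma adjusted p = 0.00992). The repeat locus sum kept its direction and its side of the threshold in all settings run.

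Deviations of same-numbered libraries correlated at 0.198, -0.177 and 0.229, beside -0.303 to 0.172 for libraries with unlike numbers. These few values cannot settle whether the numbers pair the libraries. The block drops mutant replicate 4, which has no partner. Scalings moved the median of all genes from 0.01 to at most 0.02. Members under 0.5 FPKM rest on few fragments, a limit on what was detectable.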
